A study of Mus musculus with 7 samples.

Results

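Some genes of the mouse liver carried long runs of HNF4a binding regions. In a table of 39704 HNF4a regions, measured by chromatin immunoprecipitation with sequencing (ChIP-seq), 125 of 13644 genes had 15 or more regions assigned to them, which is 0.916% of the genes. Together they held 2366 regions, 5.96% of all. These genes were chosen by their number of regions, so that number, and the summed signal that grows with it, describe the choice and are not tested. Rreb1, the gene of a zinc finger transcription factor that responds to RAS signalling, had the most regions, 35. The median gene of the table had 2, and 5515 genes had 1. The sources used here do not say how the authors selected the regions. Signal is the deposited number of normalized reads in a region, and the summed signal of a gene adds it over the regions.

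Livers of 2 genotypes were profiled. In 3 libraries the genotype was AMPK-CA, in which AMP-activated protein kinase (AMPK) is constitutively active, and in the other 3 it was wild type (WT). Both genotypes were on a high-fat diet with doxycycline for 14 days. No source used here names the altered AMPK subunit, the promoter that drove it, or the strain, sex and age of the mice. The labels number the batches 1, 2 and 3 and put 1 AMPK-CA and 1 WT library in each, all made with the antibody ab41898. The replicate number used here is the batch number. In whole liver, fewer cells of a type and less binding per cell cannot be told apart.

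HNF4a is a nuclear receptor that sits on chromatin as a homodimer and keeps hepatocytes expressing their own genes, among them those of plasma proteins and of lipid and drug metabolism. It binds elements made of direct repeats spaced by a single base. AMPK is the kinase that senses a low energy state of the cell. Genes with many regulatory regions around them are common among those that encode the transcription factors of a cell type.

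In 80 of the 2366 regions, over 59 genes, a whole RefSeq window lay inside the region, running from 250 bases before to 50 bases after a start site (GRCm38.p6, the same build as the mm10 coordinates of the regions). For 45 of the 125 genes such a window was the gene's own. A core of the HNF4a element, CAAAGNNCA, was searched on both strands. It was present in 7 of the 55 own windows inside a region (12.7%), in 11 of the 141 windows of densely bound genes (7.80%) and in 2089 of all 32851 RefSeq windows (6.36%). The narrower CAAAGTCCA, which is one form of that core, was in 0 of the 141 windows of densely bound genes and in 0.475% of all windows. A match is a string of letters and not a measured site. Windows can overlap, and a pair of Dhrs3 windows among the 7 own windows holds the same match. Shown here, among windows of the assigned gene's own start site and with 1 for each region, are the 3 in the most strongly bound regions with under 50% G and C and the 3 with 60% or more, because regions over these kinds of window differed in batch 1. They were chosen after the values had been seen. Matches of the core are in capitals, and each line runs 5' to 3' on the strand of the gene.
Sepp1: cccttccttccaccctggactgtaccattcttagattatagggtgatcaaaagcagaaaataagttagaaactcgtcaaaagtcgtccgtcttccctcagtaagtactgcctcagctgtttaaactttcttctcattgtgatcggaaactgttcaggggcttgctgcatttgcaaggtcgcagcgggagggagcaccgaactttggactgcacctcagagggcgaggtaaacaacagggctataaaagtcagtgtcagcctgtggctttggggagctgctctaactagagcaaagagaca
Lipc: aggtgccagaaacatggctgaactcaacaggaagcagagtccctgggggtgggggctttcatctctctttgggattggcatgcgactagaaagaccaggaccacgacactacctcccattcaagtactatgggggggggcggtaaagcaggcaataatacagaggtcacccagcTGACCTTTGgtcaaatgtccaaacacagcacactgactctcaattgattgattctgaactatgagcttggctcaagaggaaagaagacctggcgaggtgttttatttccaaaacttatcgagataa
H6pd: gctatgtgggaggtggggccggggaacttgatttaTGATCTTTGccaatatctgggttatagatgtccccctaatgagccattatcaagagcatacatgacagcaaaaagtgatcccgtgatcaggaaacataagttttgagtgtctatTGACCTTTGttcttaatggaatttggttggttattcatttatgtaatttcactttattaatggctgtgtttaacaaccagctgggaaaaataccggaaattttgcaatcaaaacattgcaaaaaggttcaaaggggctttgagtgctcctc
Irf2bp2: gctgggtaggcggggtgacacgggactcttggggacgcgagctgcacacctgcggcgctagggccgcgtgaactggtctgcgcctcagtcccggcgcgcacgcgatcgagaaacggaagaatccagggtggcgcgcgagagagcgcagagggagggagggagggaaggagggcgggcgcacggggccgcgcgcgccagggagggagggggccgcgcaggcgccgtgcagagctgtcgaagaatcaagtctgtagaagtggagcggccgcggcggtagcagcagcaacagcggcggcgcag
Rreb1: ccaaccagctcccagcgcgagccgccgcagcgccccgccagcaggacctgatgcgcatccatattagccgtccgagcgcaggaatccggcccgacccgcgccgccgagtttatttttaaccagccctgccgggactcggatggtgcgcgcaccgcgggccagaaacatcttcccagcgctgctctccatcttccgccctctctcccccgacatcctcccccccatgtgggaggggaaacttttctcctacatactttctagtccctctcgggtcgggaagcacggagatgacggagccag
Lpp: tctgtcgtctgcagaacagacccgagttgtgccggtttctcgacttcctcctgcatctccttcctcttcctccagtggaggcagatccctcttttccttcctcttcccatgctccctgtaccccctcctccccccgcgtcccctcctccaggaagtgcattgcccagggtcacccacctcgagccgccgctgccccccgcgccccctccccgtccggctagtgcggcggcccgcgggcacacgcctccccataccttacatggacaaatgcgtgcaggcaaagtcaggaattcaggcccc

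The first window is that of Sepp1, the gene of the selenium carrier of plasma (chr15:3270727-3271026, plus strand, 48.3% G and C), and it has no match. That of Lipc, hepatic lipase (chr9:70934759-70935058, minus strand, 48.7%), has 1 match, starting 76 bases before the start site. The window of H6pd, which makes NADPH in the endoplasmic reticulum (chr4:150003187-150003486, minus strand, 39.3%), has 2 matches. Those of the corepressor gene Irf2bp2 (chr8:126593937-126594236, minus strand, 71.7%), of Rreb1 (chr13:37826662-37826961, plus strand, 64.7%) and of Lpp, an adhesion protein gene (chr16:24393100-24393399, plus strand, 64.7%), have none. The mean normalized reads over the 6 libraries in the regions around these windows were 101.4 at Sepp1, 100.4 at Lipc, 98.3 at H6pd, 105.5 at Irf2bp2, 90.8 at Rreb1 and 84.2 at Lpp.

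At the edge of the choice there were 48 genes with 13 regions, 43 with 14, 23 with 15 and 22 with 16, so the number of genes stepped down between 14 and 15. Those with 15 had a median summed signal of 377, and those with 14 had 384. In both sets the highest summed signals, 647 at 15 regions and 681 at 14, lay above the median of all 125 genes, 489. A threshold of 12 regions would have taken 287 genes and one of 20 would have taken 41.

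By role, 25 of the 125 genes encode nuclear receptors or other transcription factors that bind DNA. The 5 nuclear receptors were Rxra (26 regions), the shared partner of many such receptors, Nr5a2 (23), also called LRH-1, Thrb (23), a thyroid hormone receptor, Nr3c1 (21), the glucocorticoid receptor, and Nr2f2 (16), also called COUP-TFII. Bcl6, a repressor gene, had 32 regions and Nfia, of the nuclear factor I family, had 30. Its relatives Nfib and Nfix had 23 and 16, the hypoxia factor gene Epas1 had 25, and the hepatocyte factor genes Foxa2, Prox1 and Cebpa had 17, 17 and 16. From a list of 48 liver transcription factor and nuclear receptor genes, 14 were densely bound, 29.2% of the list against 0.916% of all genes. The list was chosen with earlier results of these data known, so this contrast is a description and was not tested. It also rests on assigned names. Rora, on the list, had 1 assigned region and was not counted, though 36 regions lay within it. Hnf4a itself had 5 regions and Alb, the albumin gene, had 8.

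Coregulator and chromatin genes numbered 11, with a median of 20 regions. Among them were Tbl1xr1 (29), part of a nuclear receptor corepressor complex, Arid1b (26), a subunit gene of a chromatin remodeller, and Ppargc1b (17), a coactivator gene. Genes of hormone, growth factor and insulin signalling numbered 12. They included Pik3r1 (25), the regulatory subunit of phosphoinositide 3-kinase, Vegfa (24), Ppp1r3b (20), which brings phosphatase to glycogen, Ptpn1 (19), a phosphatase of the insulin receptor, and Igf1 and Ghr (17 each). Genes of lipids, lipoproteins and plasma proteins numbered 8, among them Ppap2b (29), a lipid phosphate phosphatase, Scarb1 (21), the HDL receptor, and Apoa1 and Lipc (16 each).

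Of 30 lipid metabolism genes 3 were densely bound, Elovl5, Acsl1 and Lipc. The counts were 4 of 24 for insulin and growth hormone signalling (16.7%), 2 of 24 for plasma proteins (8.33%) and 1 of 18, Ppargc1b, for AMPK and mTOR (5.56%). These shares too lay above the 0.916% of all genes, but that for AMPK and mTOR rests on 1 gene. These lists too were chosen with earlier results known, and the shares were not tested. The counts were 0 of 29 for cytochrome P450 and 0 of 12 for housekeeping genes. At 0.916%, lists this short would mostly hold 0, so these counts show no difference from all genes. Among genes of the AMPK subunits, Prkag2 had the most regions, 10. All 10 hepatocyte marker genes had a region, as did 4 of 6 cholangiocyte, 5 of 6 endothelial, 2 of 6 stellate and 0 of 6 Kupffer cell markers. Of the 125 genes, 113 were protein-coding and 10 were long noncoding RNAs, and 1 was the microRNA gene Mir365-2.

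The runs differed in width by more than an order of magnitude. The span, from the first base of the first region to the last base of the last, ran between 43296 bp at Rnf125, a ubiquitin ligase gene, and 1208035 bp at Tmem261, a mitochondrial protein gene, with a median of 186 kb. At Rreb1 35 regions spanned 307 kb (chr13:37597669-37904682), between 229 kb upstream and 77.5 kb downstream of the start site. At Bcl6 32 regions spanned 193 kb, and at Nfia 30 regions spanned 254 kb, of which 29 were intronic. Maf, Inhba and Gramd3 spanned 883, 768 and 743 kb, and H6pd, 1110034G24Rik and Cebpa 49.3, 56.1 and 61.3 kb. The regions of Nfix were packed most tightly, with 16 in 45.4 kb, or 35.3 per 100 kb, and those of the noncoding gene Gm1653 least, with 15 in 1183 kb, or 1.27 per 100 kb. Across the 125 genes the number of regions tracked the summed signal (r = 0.73) more than the log10 of the span (r = 0.28). Both values describe these genes only, since the same regions enter both axes.

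**Figure D1:**
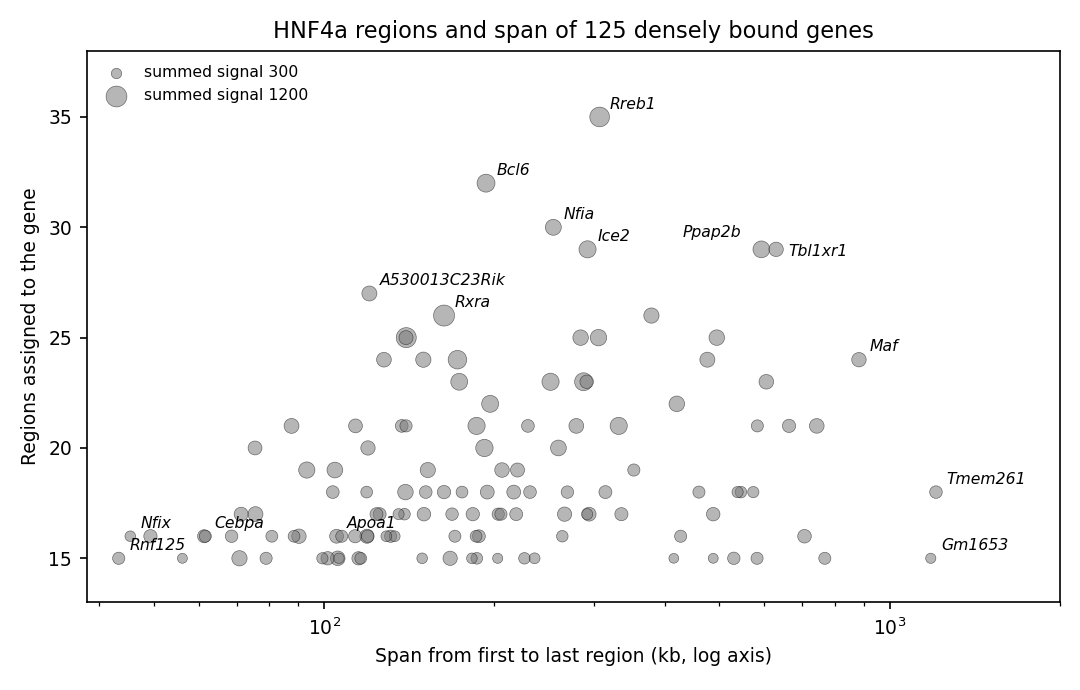
Number of HNF4a regions of each of the 125 genes against the span of these regions in kb on a log axis, with the area of a point in proportion to the mean summed signal of 6 libraries. Genes with 15 to 35 regions spread over spans of 43.3 kb at Rnf125 to 1208 kb at Tmem261.

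**Figure D2:**
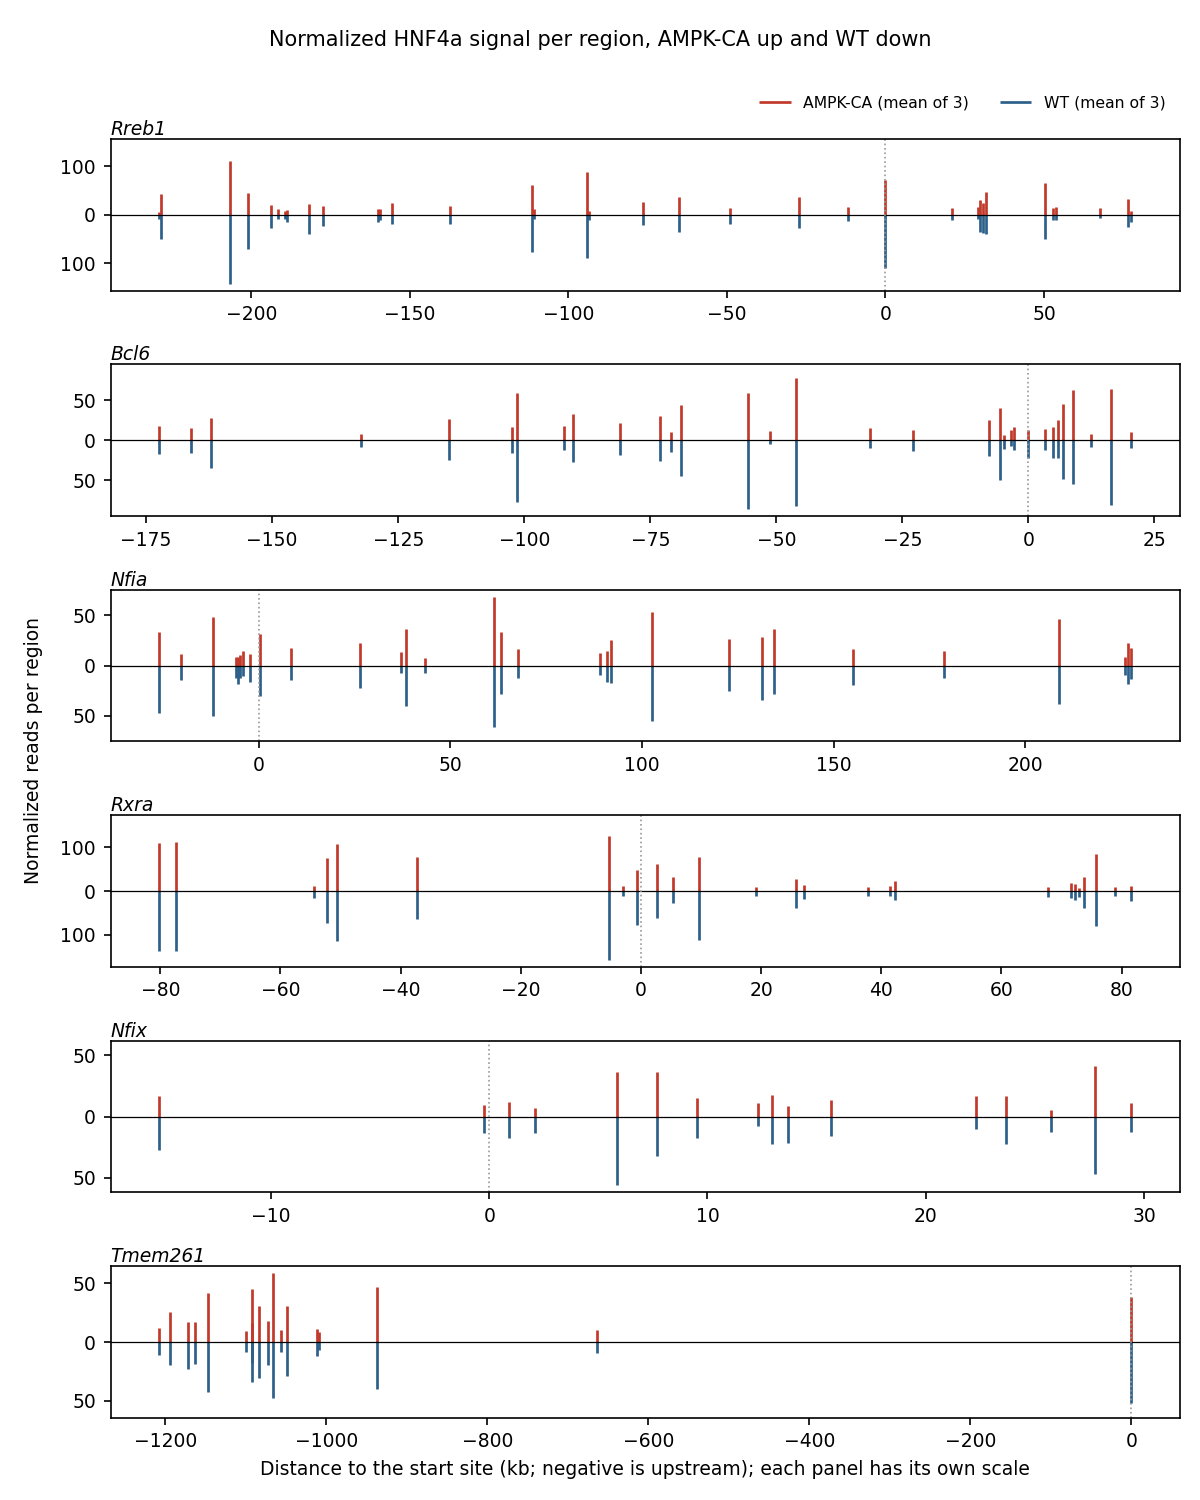
Normalized reads of each region of 6 genes against the distance to the start site in kb, with the mean of 3 AMPK-CA libraries drawn upward and the mean of 3 WT libraries drawn downward. Each region is drawn once for each genotype, and at Tmem261 nearly all of the 18 regions lie far upstream of the start site.

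Regions of densely bound genes lay far from start sites. No gene had more than 2 regions annotated to a promoter, so a choice by 15 or more regions itself favours distant and closely spaced ones, and the shares and distances here are descriptions. Their median distance was 51.6 kb, against 9.83 kb for regions of the other genes. Of the 2366 regions 3.21% were annotated to a promoter, 48.9% to an intron and 44.5% to no gene. For the regions of the other genes these shares were 13.8%, 44.6% and 30.5%. The nearest other region of the table lay at a median gap of 1.93 kb, against 4.11 kb for the other genes. The signal of a single region was similar, with a median of 18.8 normalized reads against 17.4.

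The gene name given to a region was not always that of the gene in which it lay. Of 1312 regions annotated to a gene, 217 lay in another gene than the one assigned, over 29 of the 125 genes. Ice2, a gene of small nuclear RNA transcription, was credited with 29 regions, of which 27 lay within Rora, the gene of a retinoid-related orphan receptor. The noncoding gene 2010106C02Rik had 25, of which 24 lay in Prkce, which encodes protein kinase C epsilon. Of the 18 regions of Tmem261, 17 lay in the phosphatase gene Ptprd, and of the 16 of Apoa1, 11 lay in Sik3, the gene of a kinase related to AMPK. RefSeq gene bodies held 1176 of the 2366 regions (49.7%) of their assigned genes, and 11 genes had 0 regions within their own body. Among these was Nr2f2, whose 16 regions were all intergenic.

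Counted by the gene in which they lie, 85 genes held 15 or more regions, of which 41 were among the 125 and 44 were not. Prkce held 38 regions, more than Rreb1 had by assignment, though 4 of them were assigned to it. Rora held 36, of which 1 was assigned to it, and Prkag2, the gene of an AMPK gamma subunit, held 19, of which 9 were. One entry among the 125 is listed under a number in place of a name, and its annotation names Sept9 (25 regions). Such numbers stood in place of names in 80 regions of the table. Pairs of neighbours also shared a stretch, so that the 125 genes fell into 117 loci at gaps under 50 kb, of which 8 held 2 genes. The 2 with the most regions were 2010106C02Rik with Epas1, over 592 kb, and Bcl6 with Lpp, over 426 kb, and each held 50.

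Rxra had the highest summed signal. It had 1186, 1185 and 1035 normalized reads in AMPK-CA replicates 1, 2 and 3, against 1587, 1166 and 1174 in WT replicates 1, 2 and 3. Gse1 had 1160, 959 and 1049 in the AMPK-CA libraries and 1644, 956 and 892 in the WT libraries. In both genes WT replicate 1 stood above the other 5 libraries and the groups overlapped. Rreb1 had 951, 1157 and 927 in AMPK-CA livers and 1118, 1219.8 and 1053 in WT livers. Vegfa followed with a mean of 959 over the 6 libraries and Pvrl1, a nectin cell adhesion gene, with 892. Sox6, a transcription factor gene, had the lowest sum, with 250.3, 269 and 315 in AMPK-CA livers and 254, 295 and 217 in WT livers. The groups overlapped there as well.

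How far a sum rested on single regions differed between genes. The strongest region held between 8.99% of the sum at Bcl6 and 39.2% at Tns1, the gene of the adhesion protein tensin, with a median of 16.8%. The most strongly bound region of all 2366 was assigned to Gse1 (chr8:120408536-120410180). The deposited annotation calls it intergenic, 79.5 kb upstream of the start site. The RefSeq body of Gse1 (chr8:120228501-120581383) is longer and holds it, as it does all 25 regions of the gene. This strongest region had 330, 244 and 293 normalized reads in the AMPK-CA libraries. In the WT libraries it had 505, 235 and 209, so that WT replicate 1 was highest and WT replicate 3 lowest. Next came regions assigned to Nr3c1, with a mean of 239.9, and to Tns1, with 232, followed by Prox1 with 214 and the antiproliferative gene Tob1 with 187. None of these 5 passed limma's test between the genotypes, and their log2 fold changes, AMPK-CA over WT, lay between -0.28 and 0.03.

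Reads in regions numbered 536027 to 1622087 per library. A region of a densely bound gene had a median of 14 to 23 reads in AMPK-CA and 11 to 27 reads in WT libraries. The densely bound genes took 6.36%, 6.91% and 6.52% of the signal in AMPK-CA replicates 1, 2 and 3 and 5.94%, 7.05% and 6.59% in WT replicates 1, 2 and 3. WT replicate 1 had the lowest share, and it had 19.4% of its signal at promoters, against 14.2% in AMPK-CA replicate 1 and 11.7% to 13.4% in the other 4. The part of this library in the batch 1 values below was not tested. No 2 libraries agreed within sampling noise.

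Fitted without the batch, limma called 0 of the 2366 regions at an adjusted p under 0.05 (0.0% of the whole table). By edgeR and DESeq2 0 were called as well, and also 0 of the whole table. At an unadjusted limma p under 0.05, 24 were higher and 23 lower in AMPK-CA livers, 1.01% and 0.972%, where the table as a whole had 1.46% and 0.995%. With the labelled batch as a block limma called 2 regions, both higher, against 0.0579% of the table, and edgeR called the same number with the block, against 0.0604%. DESeq2 called 0 with the block, against 0.00252% of the table. At an unadjusted DESeq2 p under 0.05, 14 were higher and 20 lower, 0.592% and 0.845%, against 0.972% and 0.98% of the table. Limma with the block but without a mean-variance trend also called 0, against 0.0% of the table. At an unadjusted p under 0.05 that fit had 69 higher and 48 lower, 2.92% and 2.03%, against 3.94% and 2.9% of the table. The limma block had 80 higher and 60 lower at an unadjusted p under 0.05, 3.38% and 2.54%, against 4.11% and 3.16% of the table.

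The first of the 2 regions lay in intron 1 of Zfp462, the gene of a nuclear zinc finger protein, 23.7 kb from its start site (chr4:54971433-54971930). It had 44.3, 33.0 and 20.8 normalized reads in AMPK-CA replicates 1, 2 and 3 and 2.67, 11.98 and 5.39 in WT replicates 1, 2 and 3. All AMPK-CA libraries lay above all WT libraries, at 32.7 ± 11.7 against 6.68 ± 4.79 (mean ± SD, n = 3 each). The log2 fold change was 2.12 ± 0.51 (SE), and limma's adjusted p was 0.003 with the block and 1.0 without it. Of the 18 regions of Zfp462, 9 had a positive mean difference. The region 12989 bp from the start site had 46.7, 19.4 and 19.4 in AMPK-CA libraries and 18.0, 20.2 and 16.2 in WT libraries, which overlap.

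The second lay 124 kb upstream of Dynlrb2, a dynein light chain gene (chr8:116380430-116380920, intergenic). It had 34.6, 31.0 and 16.7 in AMPK-CA livers and 12.7, 3.74 and 3.60 in WT livers, again without overlap. The log2 fold change was 1.89 ± 0.52 and limma's adjusted p was 0.033 with the block and 1.0 without. Leaving out WT replicate 1 without the block, limma called this region alone. Here more of the gene moved the same way, as 13 of the 16 regions of Dynlrb2 had a positive mean difference. Its summed signal was 394, 483 and 439 in AMPK-CA libraries and 313, 442 and 385 in WT libraries, a log2 fold change of 0.22 ± 0.17. In the blocked fit, leaving out batch 1 or 2 ended both calls and leaving out batch 3 ended that of Dynlrb2.

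Other regions with small p did not pass in any of these fits. Without the block the lowest p among lower regions belonged to exon 1 of Fzd7, a Wnt receptor gene, with 20.9, 9.70 and 11.1 in AMPK-CA libraries and 42.0, 19.5 and 48.5 in WT libraries. Intron 1 of Prox1, 1442 bp from the start site, had 18.5, 11.6 and 8.33 in AMPK-CA livers and 55.4, 18.0 and 34.2 in WT livers. In both, each batch had less signal in AMPK-CA, and the groups overlapped. Intergenic regions of Mir365-2, of the corepressor gene Tle1 and of the sugar transporter gene Slc45a1 had log2 fold changes of -0.83, -1.34 and -1.15. Among higher regions, exon 3 of Rhobtb1 had 34.6, 31.0 and 37.5 in AMPK-CA libraries and 18.7, 13.5 and 10.8 in WT libraries, with no overlap and a blocked adjusted p by limma of 0.336. Regions assigned to Nr3c1 and Slc45a1 had log2 fold changes of 1.67 and 1.35. In all 87 regions lay above WT without overlap and 87 below, 3.68% each, where the table had 4.64% above and 3.27% below.

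Summed over a gene, 0 of the 125 genes passed by limma, edgeR or DESeq2, without or with the batch block. Of all genes 0.0% were called by limma without the block, 0.066% by limma with it and 0.0147% by edgeR with it. Without the block edgeR called 0.0% of all genes. DESeq2 called 2 of all 13644 genes without the block and 2 with it, so 0 of 125 is near the share of all genes. Without the block 0 of the 125 had an unadjusted limma p under 0.05, where 0.967% of all genes were higher and 0.836% lower. With it 0 of the 125 were higher, against 3.58% of all genes, and 8 lower, or 6.40% against 4.16%. In every batch 12 genes had a higher sum in AMPK-CA livers (9.6%, against 10.6% of all genes) and 22 a lower sum (17.6%, against 18.3%).

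Zmiz1, a transcriptional coactivator gene, had the smallest p. Its sum over 20 regions was 835, 715 and 675 in AMPK-CA livers and 1135, 842 and 809 in WT livers. Each batch had less in AMPK-CA, with overlap only between AMPK-CA replicate 1 and WT replicate 3, and the log2 fold change was -0.31 ± 0.16. With the block its unadjusted limma p was 0.002 and its adjusted p 0.329. Of its 20 regions, 5 had a positive mean difference. The intronic region 22467 bp from the start site had 79.7, 98.0 and 73.6 in AMPK-CA libraries and 141, 106 and 117 in WT libraries. The noncoding gene A530013C23Rik had 643, 440.5 and 563 in AMPK-CA livers and 948, 532 and 617 in WT livers, with 4 of 27 regions positive.

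Scarb1, which encodes the receptor for high-density lipoprotein, had 577, 568 and 535 in AMPK-CA livers and 742, 613 and 652 in WT livers. The groups did not overlap, at a log2 fold change of -0.25 ± 0.14 and an adjusted limma p of 0.586 with the block. Of its 21 regions, 6 had a positive mean difference. Sums without overlap and with less in AMPK-CA were found in 4 genes, Scarb1, Klf9, Gm17746 and 3110009F21Rik (3.20%, against 4.17% of all genes), and 1 gene had more (0.800%, against 3.31%). Klf9, a glucocorticoid-responsive factor gene, had 636, 639 and 622 in AMPK-CA libraries and 659, 799.7 and 643 in WT libraries. This difference was of the size of its error, with a log2 fold change of -0.14 ± 0.14.

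Of the 5 genes with a higher sum in each batch and the smallest p, 3 changed sign without WT replicate 1. Nr2f2 had 452, 668 and 514 in AMPK-CA livers and 316, 659 and 469 in WT livers, at a log2 fold change of 0.22 ± 0.23. Ext1, a heparan sulphate polymerase gene, had 356, 440.5 and 394 in AMPK-CA libraries and 236, 417 and 394 in WT libraries. In both the difference between genotypes was widest in batch 1. Without WT replicate 1 the log2 fold change was -0.05 for Nr2f2 and -0.04 for Ext1, and that of Minpp1, an inositol phosphatase gene, was -0.06 against 0.19 with all libraries. Rbfox2, a splicing factor gene, had 324, 369.7 and 340.3 in AMPK-CA livers and 261, 342 and 309 in WT livers, and kept its direction, as did Dynlrb2.

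**Figure D3:**
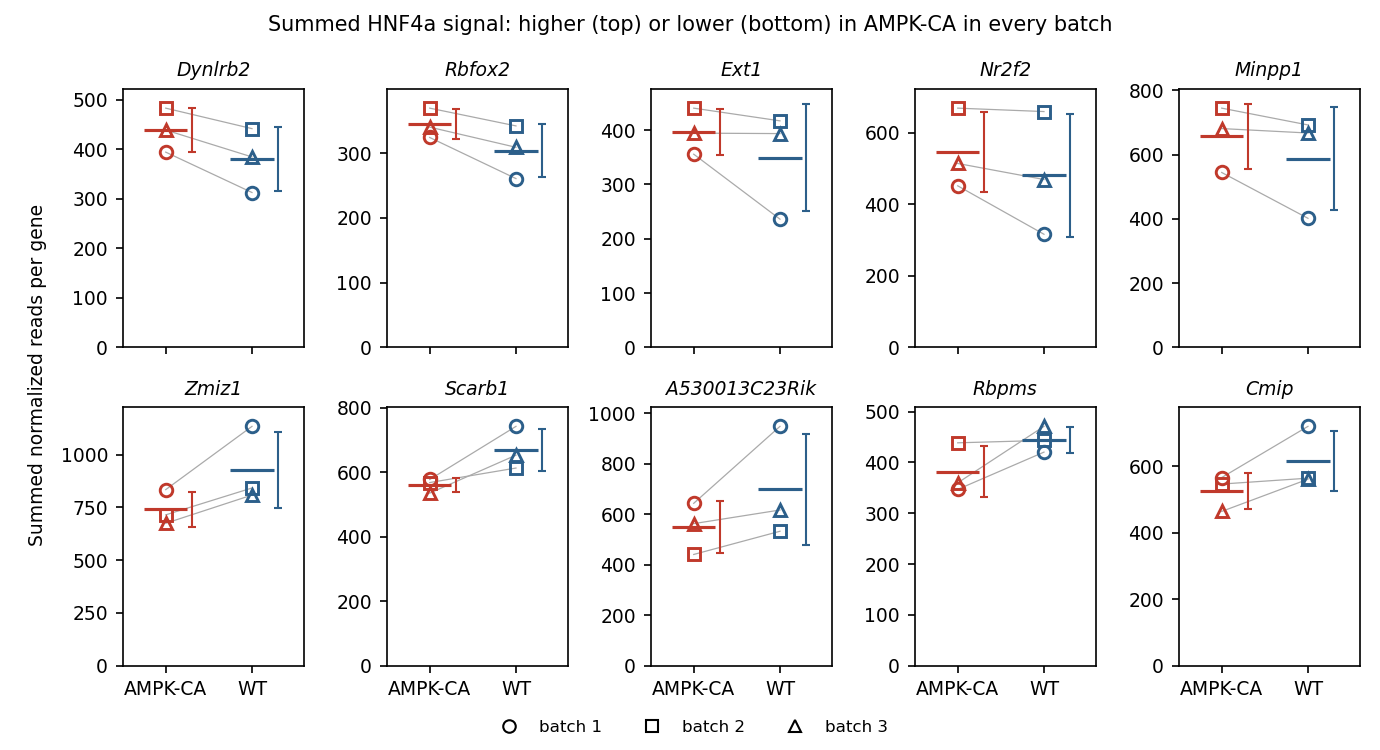
Summed normalized reads per gene in each library, AMPK-CA left and WT right, with symbols for the 3 batches, grey lines joining libraries of a batch, a bar for the mean and a whisker for the SD. The genes are the 5 with the smallest p in each direction among those with the same sign in every batch, and only Scarb1 among them shows no overlap.

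The regions of a gene moved together in batch 1 and hardly in batches 2 and 3. Movement is the within-batch difference of log2 normalized reads, AMPK-CA minus WT. The share of its variance that lay between genes, an intraclass correlation, came to 0.17, 0.02 and -0.004 in batches 1, 2 and 3 for the 2366 regions. In the 2326 genes with 5 to 14 regions it was 0.16, 0.04 and 0.008, so densely bound genes showed the same order of batches. On the mean of the batches it was 0.06 for the densely bound genes and 0.07 for the others. Without batch 1 it was 0.009 for the densely bound genes. These are descriptions without a test, since all regions of a batch share the same pair of libraries. Batch 3 had the fewest reads per region, a median of 14 in AMPK-CA and 11 in WT. The part of depth in its low values was not tested.

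At Igf1, the gene of insulin-like growth factor 1, all 17 regions had more signal in AMPK-CA than in WT in batch 1, the only gene of the 125 with a single sign throughout a batch. In batches 2 and 3, 7 and 8 of the 17 did. Its sum was 359.8, 488 and 458 in AMPK-CA replicates 1, 2 and 3 and 194, 532 and 479.9 in WT replicates 1, 2 and 3, so that the value of WT replicate 1 was the lowest of the 6. At Ghr, the growth hormone receptor gene, the median difference was 0.95 in batch 1, the highest of the 125 genes, and -0.32 and -0.04 in batches 2 and 3. Thrb had 20, 11 and 9 of its 23 regions higher in AMPK-CA in batches 1, 2 and 3.

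The other direction also occurred in batch 1. Nfix had 1 of 16 regions higher in AMPK-CA in batch 1, and 8 and 6 in batches 2 and 3, and its sum was 297, 253 and 275 in AMPK-CA libraries and 490.3, 246 and 309 in WT libraries. Vegfa, the angiogenic growth factor gene, had 2, 15 and 10 of 24 higher, with a sum of 939, 896 and 796 in AMPK-CA livers and 1389, 821 and 909.5 in WT livers. Again WT replicate 1 was the library apart, here as the highest, and at Vegfa AMPK-CA replicate 1 came next. Over the 2366 regions the deviations of the batch 1 libraries from their group means correlated at r = 0.42. Genes with at least 75% of their regions higher in AMPK-CA numbered 27, 2 and 2 in batches 1, 2 and 3, and those with at least 75% lower numbered 11, 9 and 3.

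Over all batches 18 genes had a positive and 16 a negative median difference in every batch, together 27.2% of the 125, against 26.4% of genes with 5 to 14 regions. Nr2f2, Nfia, Ppap2b and Nr3c1 were among the 18, and Gse1, Scarb1, Prox1 and Nfix among the 16. Of the 5 nuclear receptor genes 2 were among the 18 and 0 among the 16. Nr2f2 had the most uniform mean difference, positive in 15 of 16 regions, followed by Dynlrb2 in 13 of 16, Zfp608 in 17 of 21, Pard3 in 19 of 24 and Tcf7l2 in 14 of 18. Tomm20, a mitochondrial import receptor gene, was the most uniform in the other direction, positive in 3 of 23. The median differences of the 125 genes correlated between batches 1 and 2 at r = -0.08, between 1 and 3 at 0.20 and between 2 and 3 at 0.08. These correlations are across genes measured in the same libraries.

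Neighbouring regions of one gene were also alike in batch 1. The differences of adjacent regions correlated at r = 0.27 over 490 pairs under 1 kb apart, 0.24 over 671 pairs at 1 to 5 kb, 0.19 over 689 pairs at 5 to 20 kb and 0.15 over 391 pairs at 20 kb or more. In batch 2 the values were 0.05, 0.03, 0.02 and -0.04, and in batch 3 0.0095, 0.03, -0.04 and -0.07. Single regions showed little relation between batches, with r of 0.04, 0.007 and 0.02 for batches 1 and 2, 1 and 3, and 2 and 3. At a median of 11 to 27 reads per region, counting noise lowers such correlations. These low values therefore cannot show that single regions share no movement. Of the 2366 regions 314 were higher in AMPK-CA in every batch (13.3%, against 13.5% of the table) and 305 lower (12.9%, against 14.6%). Within Rreb1 5 of its 35 regions were higher and 10 lower in every batch, so that a single gene held both.

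In batch 1 the genes with the widest runs mostly had more signal in AMPK-CA. The median difference correlated with the log10 of the span at r = 0.50 in batch 1, -0.05 in batch 2 and 0.28 in batch 3 across the 125 genes, which share the libraries of each batch. Of the 31 widest genes, with spans from 306 kb, 30 had a positive median difference in batch 1. The median of the 31 gene medians was 0.45. In batches 2 and 3, 13 and 21 of the 31 were positive, with medians of the gene medians of -0.02 and 0.08. In the 3 narrower groups of genes by span, narrowest first, 16 of 32, 11 of 31 and 23 of 31 were positive in batch 1. Their medians of gene medians were 0.005, -0.08 and 0.09, so the order was not even. The geometric mean sum of the 31 widest genes was 450.1, 549 and 494 in AMPK-CA replicates 1, 2 and 3 and 387, 572 and 479 in WT replicates 1, 2 and 3. WT replicate 1 was the lowest library for these genes, and AMPK-CA replicate 1 was the next lowest. Positive differences away from promoters were not particular to densely bound genes in batch 1. Over the whole table the batch 1 median was 0.24 for intergenic, 0.12 for intronic and -0.60 for promoter regions. For regions of densely bound genes these batch 1 medians were 0.14, 0.15 and -0.67.

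**Figure D4:**
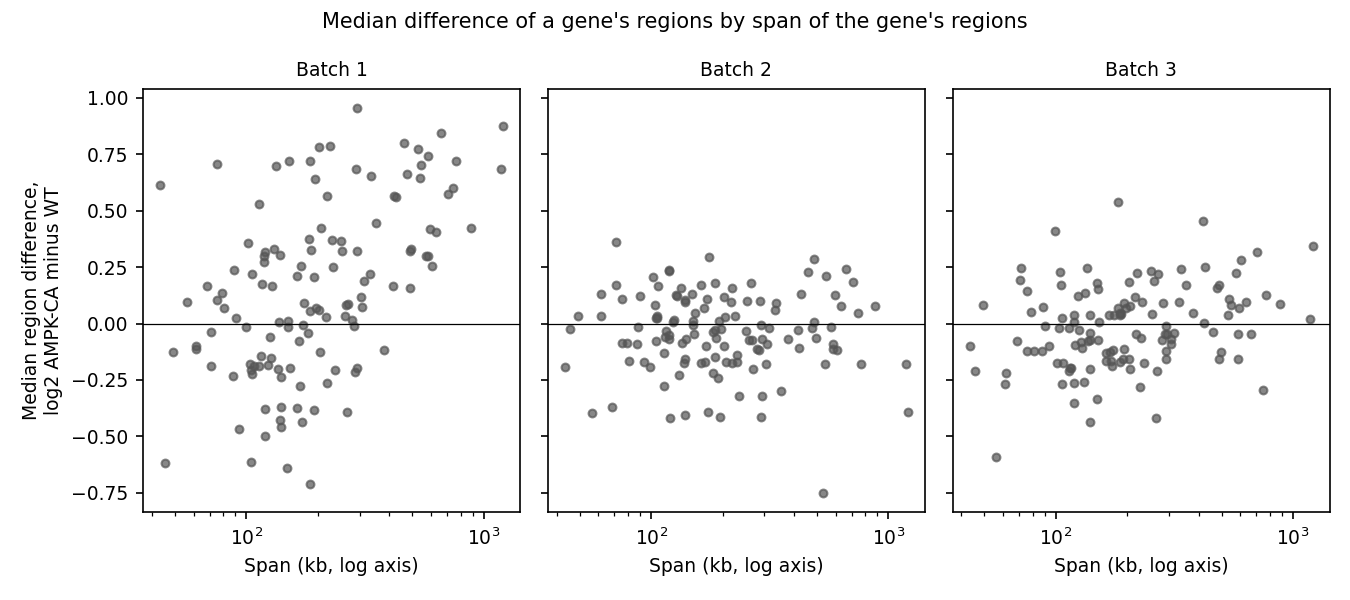
Median log2 difference of a gene's regions, AMPK-CA minus WT, against the span of the gene's regions in kb on a log axis, for 125 genes in each of 3 batches. In batch 1 the points of the widest genes lie mostly above 0 (r = 0.50), and in batches 2 and 3 they lie closer to 0 (r = -0.05 and 0.28).

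Among the regions at start sites, those with a window rich in G and C moved the other way in that batch. The 42 regions of densely bound genes whose window had 60% or more G and C had a median difference of -0.77 in batch 1, and 41 of them had less signal in AMPK-CA. In batches 2 and 3 the medians were -0.16 and -0.10, with 25 of 42 lower in each. The 19 regions with under 50% G and C had medians of 0.07, -0.18 and 0.06. Across all 80 regions the difference correlated with the G and C share at r = -0.65 in batch 1, 0.04 in batch 2 and -0.09 in batch 3. The 3600 regions of the whole table that hold such a window gave -0.54, -0.02 and -0.06.

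By library, WT replicate 1 stood apart at the windows rich in G and C. The 42 regions had 31.8, 23.8 and 27.8 normalized reads in AMPK-CA replicates 1, 2 and 3 and 55.7, 28.5 and 28.8 in WT replicates 1, 2 and 3. The 19 regions under 50% had 34.6, 48.5 and 43.1 in AMPK-CA libraries and 34.7, 53.2 and 39.5 in WT libraries. WT replicate 1 was the highest library in the first set, and both libraries of batch 1 were lowest in the second. The printed windows lie in regions of these sets and were chosen by this contrast, so they illustrate it and add no support. In batch 1 the differences were 0.24 at Sepp1, -0.003 at Lipc and -0.06 at H6pd, and -0.51, -0.85 and -0.92 at Irf2bp2, Rreb1 and Lpp. The part of base composition in the batch 1 differences of whole genes was not tested, since the sequences of regions away from start sites were not used here.

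**Figure D5:**
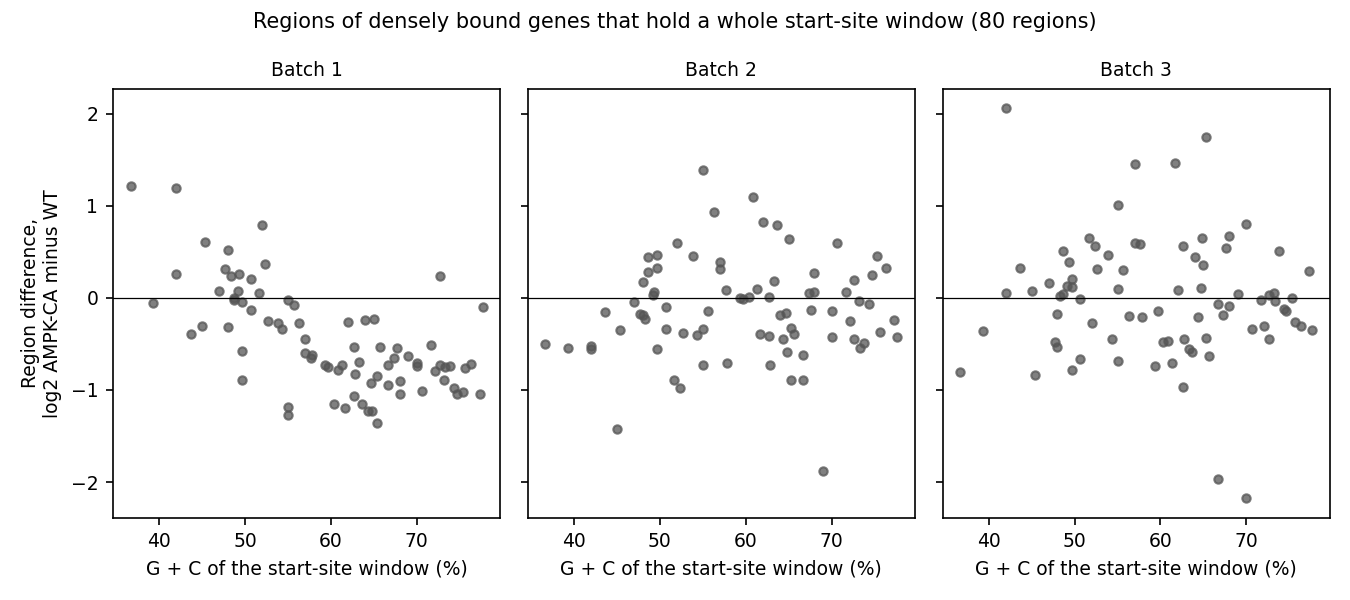
Log2 difference, AMPK-CA minus WT, of 80 regions of densely bound genes that hold a whole start-site window, against the share of G and C in that window in percent, in each of 3 batches. In batch 1 nearly all regions with 60% or more lie below 0 (41 of 42), and in batches 2 and 3 they lie on both sides.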

How the data were processed

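HNF4a ChIP-seq signal was read in 3 AMPK-CA and 3 WT liver libraries. The deposited values are a normalized read signal per region, in mm10 coordinates. Whole reads could be recovered: 100.0% of values were whole multiples, within 1e-06, of the value of 1 read. The submitters' processing notes name BWA, MACS2, SICER and HOMER, with no order or version. The pooled input was not analysed here.

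The whole table of 39704 regions, and its sums over 13644 genes, was fitted with limma 3.58.1 (trend, robust) on log2(value + 1.80), genotype only, with Benjamini-Hochberg adjustment at 0.05. Fold changes on that scale understate weak regions. Alternatives were a batch block, edgeR 4.0.16 quasi-likelihood and DESeq2 1.42.0 on recovered reads, other pseudocounts, filters, thresholds and left-out libraries. Count tests were alternatives because the deposited unit is normalized. The scripts were tested on simulated data. Batch pairs the samples because the labels give it. Deviations of same-batch libraries correlated at r = 0.53 and 0.49 in batches 1 and 2 and at 0.05 in batch 3, where the data show no such pairing.

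Genes and lists were chosen with earlier results of these data known. Named genes were the 10 with most regions, the 5 highest and lowest by sum, the 5 widest and narrowest, and in each direction the 5 with the smallest p of one sign in all batches and the 5 with the most uniform regions, with called regions, the 5 smallest p each way and the 5 strongest. Other genes were named for their role or after their values were seen. Role groups were made after the names were seen. Of the 125 names 118 matched RefSeq by symbol and 7 by synonym. Library names carry different codes, but no label says that each is a separate animal, so p-values measure the spread between these samples, which may be technical. Some densely bound genes are counted but not reported by name here.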

Additional observations from a re-analysis of the deposited data

How the results depend on the processing

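With the labelled batch as a replicate block, limma called 2 regions in place of 0 and edgeR called 2. Other region counts were 0 under the other pseudocounts, the filter, DESeq2 and the fits without trend. Leaving out a library or batch gave 0 to 1 of the 2366, where the whole table had 0 to 16. Sums of the 125 genes gave 0 calls under each setting, where all genes had 0 to 11. The median region difference, 0.02, was -0.03 with annotation class medians taken off. On a scale of total recovered reads it was 0.077, with 0.058 for the whole table. On that scale 23 genes had a positive and 13 a negative median in every batch. The median log2 fold change of the regions was -0.024 by edgeR and -0.051 by DESeq2 without the block, and 0.007 and -0.005 with it. Without a library or batch the median region difference lay between -0.05 and 0.10. It was negative without WT replicate 1 and without batch 1. Counting only regions within 50 kb of start sites left 17 densely bound genes with 276 regions. Their median difference was -0.083, and that of the whole table under this setting was -0.03. Genes with one direction in every batch were 34 of 125 (27.2%, against 26.4% of genes with 5 to 14 regions). They became 77 of 287 at 12 or more regions and 14 of 41 at 20 or more. Without the weakest 25% of regions they were 14 of 50, and with regions under 1 kb apart joined 14 of 63. Within 50 kb of start sites they were 3 of 17. Without a batch, where fewer batches have to agree, they were 53 to 70. These settings change how many genes or batches enter. Intraclass correlations in batch 1 stayed between 0.16 and 0.21, and that of the batch mean was 0.009 without batch 1. Giving each region to the gene in which it lies and taking off annotation class medians were chosen after seeing the data, and the first gave 0.17, 0.03 and 0.004. Without 1 library the log2 fold changes of the sums ranged from -0.035 to 0.37 for Ext1, -0.049 to 0.48 for Nr2f2 and -0.062 to 0.33 for Minpp1. They were lowest without WT replicate 1 and highest without WT replicate 2, and the cause was not tested. At 11 to 27 reads per region, depth limits the single region.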
